A study of Mus musculus with 6 samples.

Results

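The filaggrin family of S100-fused genes comprises Flg, Flg2, Hrnr, Rptn, Tchh and Tchhl1, which lie next to each other on mouse chromosome 3. All 6 were found by symbol in a deposited table of 49452 gene rows, and all 6 were among the 13500 genes tested. Levels were compared between 3 epidermal libraries labelled Rictor -/- (ricEKO 263, 265 and 266) and 3 labelled control (261, 262 and 264), all from C57BL/6 mice at E19.5, late in gestation. Rictor is a defining subunit of mTOR complex 2, a kinase complex that acts on AKT. The sources used here give neither the Cre driver nor the deleted exons, and of the controls no genotype beyond that word. They do not tie libraries to separate animals, so p-values measure only the spread between libraries, which may be technical.

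Proteins of this family begin with a calcium-binding domain of the S100 type and continue into a long run of repeats encoded by a single large exon. Profilaggrin, the product of Flg, is stored in keratohyalin granules and cut into filaggrin, which packs keratin filaments in the outermost layers and is then broken down to the amino acids that hold water there. Filaggrin-2 (Flg2) and hornerin (Hrnr) resemble it in structure and site. Repetin (Rptn) is a precursor of the cornified envelope, the protein shell that transglutaminases build beneath the membrane of dying keratinocytes. Trichohyalin (Tchh) hardens the inner root sheath and medulla of the hair after deimination and cross-linking, and Tchhl1 encodes a trichohyalin-like protein.

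In the knockout-labelled libraries Rptn was 8.92-fold higher in mean FPKM and Tchhl1 1.51-fold higher, and both passed the test across all genes. Flg, Flg2, Hrnr and Tchh had lower means, at 0.766, 0.690, 0.719 and 0.718 of the control mean, and none of these differences passed. Among the controls, library 264 held the lowest value of every member. Without it these 4 genes were called lower and Rptn higher, while Tchhl1 was no longer called.

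Some facts about the libraries bear on these values. FPKM is a fragment count scaled by transcript length and by the mapped fragments of the library. Summed FPKM was 609375 to 622019 in the knockout-labelled libraries and 623490 to 672925 in the controls, and the steps between low values put all depths within 1.21 times that of control 261. Rictor itself was not lower, at 6.83, 7.04 and 6.86 FPKM in the knockout-labelled libraries against 5.63, 6.02 and 4.37 FPKM in the controls (log2 difference 0.33 ± 0.11, limma adjusted p = 0.0694). A whole-gene value can keep reads from exons outside a deletion and does not check the labels, so directions below are those of the libraries labelled knockout. Keratinocyte markers were abundant in all libraries (Krt14, Krt5, Krt1, Krt10, Lor and Dsp summed to 35704 to 37057 FPKM in the knockout-labelled libraries and 33307 to 34323 FPKM in the controls). These sums did not overlap between the groups. Of the 6 markers 2 were called higher and 0 lower, against 7.91% and 15.6% of all tested genes. Control 264 stood apart: mitochondrial mRNAs held 1.79% of its FPKM, against 3.54% to 3.94% in the knockout-labelled libraries and 3.79% to 4.06% in the other controls. Its deviations from the gene means fell with exonic length (Spearman's rho -0.358 across 13467 genes, which are not independent), while rho was 0.173 to 0.263 in the knockout-labelled libraries and -0.00709 and 0.00280 in controls 261 and 262. Of the 13500 tested genes 3169 were called, and 33.7% of these were higher. That share was 44.8% with medians aligned, 47.9% with either trimmed means or quantiles aligned and 50.8% with length and GC content adjusted.

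Repeats within the long exons may limit what a gene-level FPKM can measure. In the longest GENCODE M21 transcript of each member, a single exon held 98.7% of Flg, 99.0% of Flg2, 98.1% of Hrnr, 95.1% of Rptn, 97.6% of Tchh and 89.5% of Tchhl1. Of all words of 50 bases in those transcripts, 79.2% occurred more than once in Flg, 65.3% in Flg2 and 69.1% in Hrnr. The share was 10.1% in Tchh, 5.49% in Rptn and 0% in Tchhl1, while the median over 12075 tested protein-coding genes was 0%. No such word, on either strand, was shared with a transcript of another gene. Reads from Flg, Flg2 and Hrnr could therefore fit several places within their own gene but, over exact words of this length, no other gene. How the authors treated such reads is not stated in those sources, and its part in the levels of these 3 genes was not tested. For Flg and Flg2 the longest transcripts are annotated as processed transcripts, and the longest protein-coding Flg2 transcript had 26.3% of words repeated.

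The following windows of 60 bases are shown as stretches that recur in the long exons of the 3 filaggrin-like genes and of Tchh. Each is the window with the most copies in the longest transcript among those with a copy inside an annotated coding exon. They are printed 5′ to 3′ on the + strand of GRCm38, with the place of the first such copy. The Flg window occurs 16 times in exon 3 with a median spacing of 751 bases (chr3:93281568-93281627), the Flg2 window 50 times with a spacing of 234 bases (chr3:93203946-93204005), and the Hrnr window 16 times with a spacing of 513 bases (chr3:93323713-93323772). The Tchh window occurs 4 times with a spacing of 60 bases in exon 2 (chr3:93445700-93445759). All copies in Hrnr and Tchh lie in annotated coding exons, but only 7 of the 16 in Flg and 10 of the 50 in Flg2.
Flg: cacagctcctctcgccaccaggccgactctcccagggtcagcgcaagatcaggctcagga
Flg2: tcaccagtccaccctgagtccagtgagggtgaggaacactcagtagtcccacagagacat
Hrnr: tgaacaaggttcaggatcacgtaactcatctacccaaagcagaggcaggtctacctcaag
Tchh: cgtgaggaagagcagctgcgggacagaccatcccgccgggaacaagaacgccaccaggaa

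**Figure D1:**
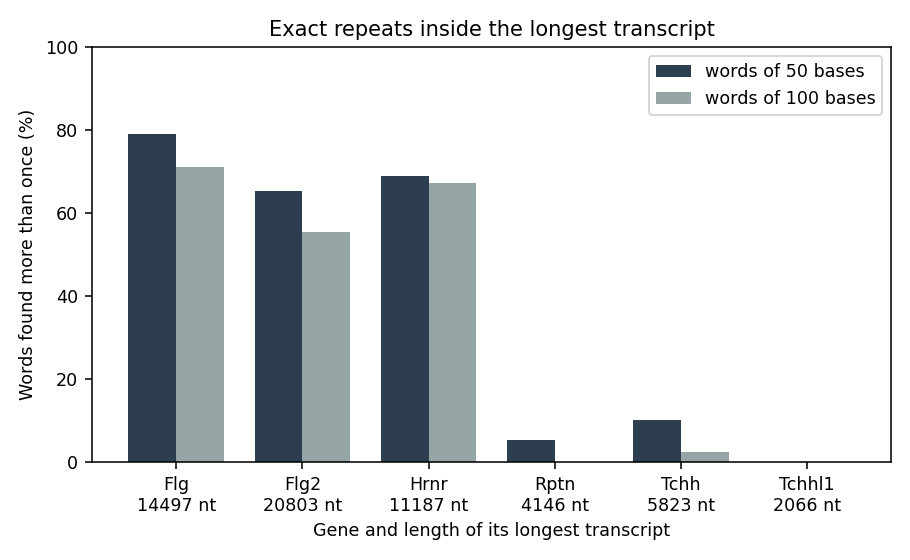
Share of words of 50 bases (dark bars) and 100 bases (light bars) that occur more than once within the longest GENCODE M21 transcript of each member, with the transcript length under its name. Flg, Flg2 and Hrnr stand at 55.5% to 79.2%, and Rptn, Tchh and Tchhl1 at no more than 10.1%.

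The promoters of most members share a short stretch. In the 300 bases around each start site given by RefSeq on GRCm38.p6 (250 before it and 50 after), TGAATCA or its reverse complement TGATTCA was found in Flg, Flg2, Rptn and Tchhl1, and also in Crnn (cornulin), the neighbouring S100-fused gene that is not among the 6. The letters lie within the wider pattern TGANTCA, which reads the same on both strands and resembles the site of AP-1 factors. TGAATCA on either strand was present in 2.81% of the 32851 promoters and TGANTCA in 7.81%. The motif was chosen after these promoters had been read, so the contrast with all promoters is a description. Hrnr and Tchh had no match in this window. The matches are shown in capitals with 16 bases on each side, 5′ to 3′ on the + strand, with the place of the first capital relative to the start site.
Flg, from -103, chr3:93273427-93273465: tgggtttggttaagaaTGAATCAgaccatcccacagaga
Flg2, from -69, chr3:93197188-93197226: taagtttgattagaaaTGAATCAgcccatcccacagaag
Rptn, from -96, chr3:93393587-93393625: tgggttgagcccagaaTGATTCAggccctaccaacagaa
Tchhl1, from -87, chr3:93468651-93468689: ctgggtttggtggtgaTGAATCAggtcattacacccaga
Crnn, from -96, chr3:93144677-93144715: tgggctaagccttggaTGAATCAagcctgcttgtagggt
The genes with this stretch did not share a direction: Rptn and Tchhl1 were higher in the knockout-labelled libraries, Crnn was lower, and Flg and Flg2 were not called.

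Levels per length spanned a wide range. In the knockout-labelled libraries the order of mean FPKM was Flg (874 ± 129), Flg2 (160 ± 16.1), Rptn (149.6 ± 22.3), Hrnr (82.5 ± 5.64), Tchh (82.3 ± 5.50) and Tchhl1 (5.31 ± 0.856), all as mean ± SD with n = 3. In the controls it was Flg (1142 ± 475), Flg2 (231 ± 45.4), Tchh (115 ± 29.2), Hrnr (115 ± 28.9), Rptn (16.8 ± 3.33) and Tchhl1 (3.52 ± 0.430). Hrnr and Tchh were not separated in either group, and Rptn overlapped Flg2 in the knockout-labelled libraries. Rptn thus lay above Hrnr and Tchh in all 3 knockout-labelled libraries and below both in all 3 controls. By mean FPKM, Rptn ranked 505 among the tested genes in the knockout-labelled libraries and 5215 in the controls, and Flg ranked 120 in the knockout-labelled libraries and 98 in the controls.

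**Figure D2:**
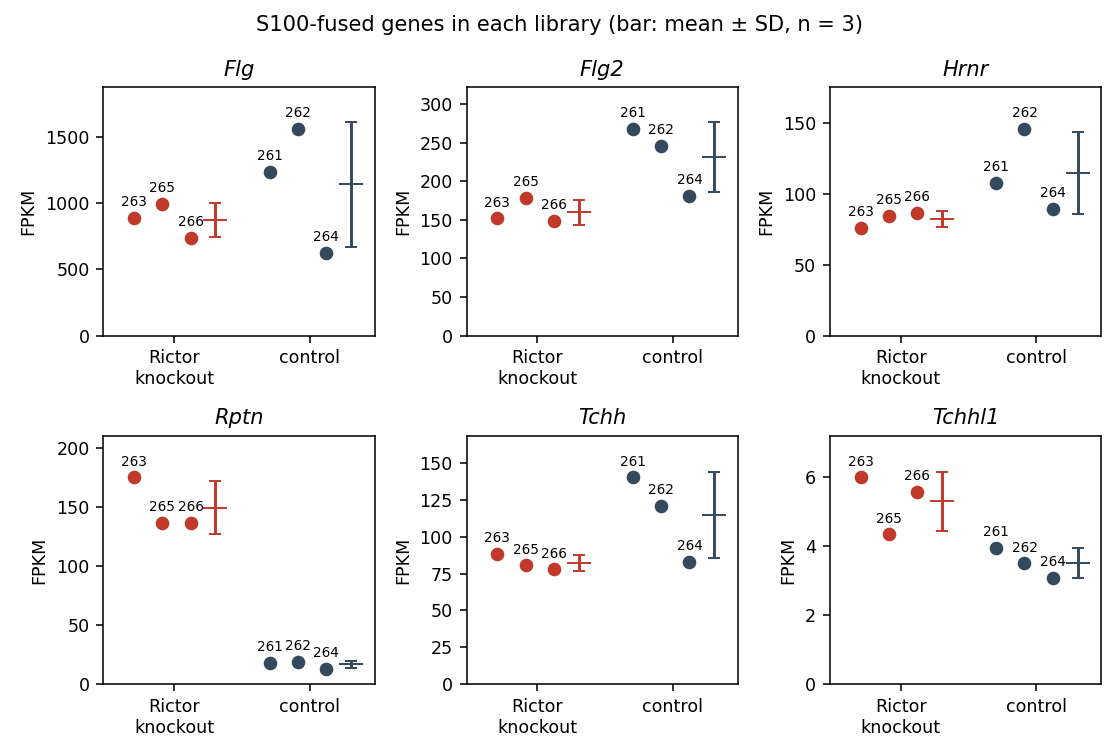
FPKM of the 6 members in each library, labelled by library number, with the knockout-labelled group at left and controls at right, and mean ± SD as bars (n = 3 each). Rptn sits at 137 to 175 FPKM in the knockout-labelled libraries and at 13.0 to 19.1 FPKM in the controls, and control 264 is the lowest control for each gene.

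Among the filaggrin-type genes, Flg (ENSMUSG00000102439, chr3:93273523-93293686) had 891, 994 and 738 FPKM in knockout-labelled 263, 265 and 266, against 1235, 1563 and 627 FPKM in controls 261, 262 and 264. Controls 261 and 262 lay above all knockout-labelled libraries and control 264 below them, so the groups overlapped. Its log2(FPKM + 1) difference, the scale of every log2 difference below, was -0.30 ± 0.32 (SE), with a 95% interval of -1.07 to 0.48 (limma, adjusted p = 0.535). Without control 264 it was -0.68 ± 0.16 (limma, adjusted p = 0.0287).

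Flg2 (ENSMUSG00000049133, chr3:93197278-93221391) had 152, 178 and 149 FPKM in the knockout-labelled libraries, against 268, 246 and 181 FPKM in the controls. The groups did not overlap, with control 264 just above knockout-labelled 265. The difference was -0.52 ± 0.16 and narrowly missed the threshold (limma, adjusted p = 0.0548). It passed after the length and GC adjustment at -0.61 ± 0.10 (adjusted p = 0.00787, limma) and without control 264 at -0.69 ± 0.09 (adjusted p = 0.00845, limma). Hrnr (ENSMUSG00000041991, chr3:93319749-93333570) had 76.1, 84.5 and 86.8 FPKM in the knockout-labelled libraries, against 108, 146 and 89.5 FPKM in the controls, again without overlap. Its difference was -0.44 ± 0.17 with an interval of -0.85 to -0.04 before adjustment (limma, adjusted p = 0.106), and without control 264 it was -0.60 ± 0.14 (adjusted p = 0.0271).

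Rptn (ENSMUSG00000041984, chr3:93393699-93399442), the envelope precursor, had 175, 137 and 137 FPKM in the knockout-labelled libraries, against 18.3, 19.1 and 13.0 FPKM in the controls. The lowest knockout-labelled library was above the highest control by far more than the spread in either group. The difference was 3.09 ± 0.17 (limma, adjusted p = 0.000463), and 21 of the 13500 tested genes had a larger one. It was 2.93 ± 0.12 without control 264 and 3.16 ± 0.18 after the length and GC adjustment. Of the annotated genes that overlap Rptn, Gm37857 on the same strand stood at 0.0656 to 0.0953 FPKM in the knockout-labelled libraries and at 0 in the controls, and the antisense lincRNA Gm37245 stood at 0.0382 to 0.131 FPKM in the knockout-labelled libraries and 0.122 to 0.186 FPKM in the controls. The longest Rptn transcript shares no word of 50 bases, on either strand, with a transcript of either gene. Whether reads were counted by strand is not stated. Antisense reads from outside the annotated transcripts therefore cannot be told apart from those of Rptn.

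Tchhl1 (ENSMUSG00000027908, chr3:93468754-93471980) was the least abundant member, at 6.00, 4.35 and 5.57 FPKM in the knockout-labelled libraries against 3.95, 3.50 and 3.09 FPKM in the controls. Knockout-labelled 265 lay close to control 261, though the groups did not overlap. The difference of 0.48 ± 0.13 passed (limma, adjusted p = 0.0369), but it did not pass without control 264 (0.41 ± 0.13, limma adjusted p = 0.0692), nor without knockout-labelled 263 or 266 or controls 261 or 262 (0.40 to 0.55). Tchh (ENSMUSG00000052415, chr3:93442330-93449077) had 88.4, 80.7 and 77.8 FPKM in the knockout-labelled libraries, against 140, 121 and 82.8 FPKM in the controls. Control 264 fell within the knockout-labelled range, so the groups overlapped. The difference was -0.44 ± 0.18 (limma, adjusted p = 0.128), and without control 264 it was -0.66 ± 0.09 (limma, adjusted p = 0.00799).

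Of the 6 members 2 were called, against 23.5% of all tested genes. Both were higher (background 7.91%), and 0 were lower (background 15.6%). In the same limma fit 3 members, Flg2, Hrnr and Tchh, were lower at an unadjusted p under 0.05, as were 24.9% of all tested genes. Without control 264, 5 were called (background 28.1%), of which 1 was higher (background 11.2%) and 4 lower (background 16.8%). After the length and GC adjustment 3 were called (background 24.7%), of which 2 were higher (background 12.5%) and 1 lower (background 12.1%). The groups did not overlap for 4 of the 6, against 45.8% of the tested genes. The median difference of the members was -0.37, against -0.06 over all tested genes, and -0.63 against -0.05 without control 264. This background varied with exonic length. With all libraries, genes of at least 10000 exonic bases, the class of Flg, Flg2 and Hrnr, were 5.13% lower and 8.98% higher, with a median of 0.05. Genes below 2000 bases were 19.9% lower and 5.27% higher, with a median of -0.18.

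**Figure D3:**
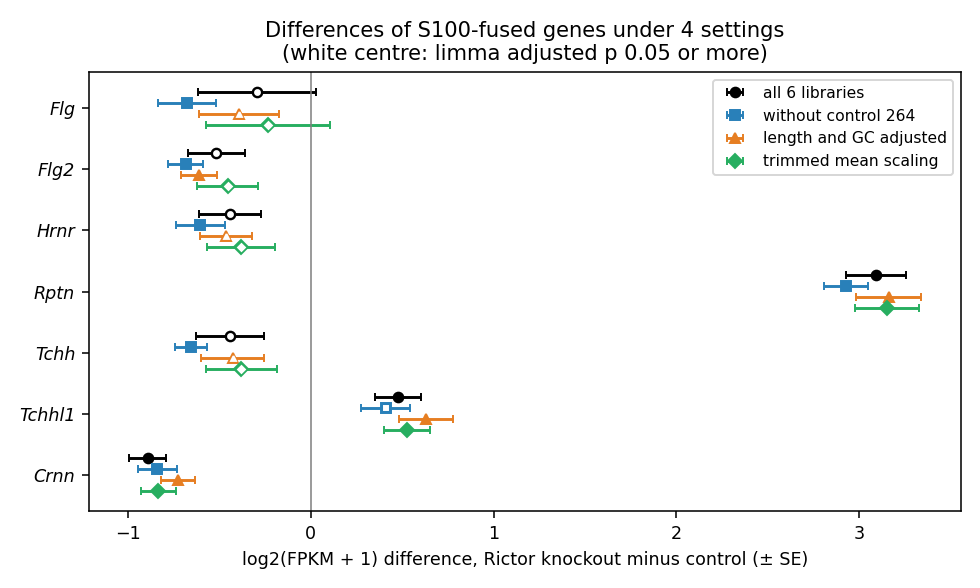
Differences in log2(FPKM + 1), knockout-labelled minus control, with SE bars for the 6 members and Crnn under 4 settings, where a white centre marks a limma adjusted p of 0.05 or more. Rptn stays near 3 in all 4 settings, and Flg, Flg2, Hrnr and Tchh are called in blue, without control 264.

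Control 264 was below the other controls in every member. Its log2 value minus the mean of controls 261 and 262 was -1.15 for Flg, -0.65 for Tchh, -0.50 for Flg2 and Rptn, -0.49 for Hrnr and -0.21 for Tchhl1. Over the 1169 tested genes with at least 10000 exonic bases the median of the same measure was -0.13, and over the 5536 genes of 2000 to 5000 bases it was 0.11. Only 0.719% of all tested genes were lower than Flg by this measure. The members' exonic lengths were 20803 bases for Flg2, 18829 for Flg, 11187 for Hrnr, 5823 for Tchh, 4146 for Rptn and 2066 for Tchhl1. The part of length, repeats or RNA quality in these values was not tested.

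Members were also compared with Flg within each library. The log2 ratio of Rptn to Flg, from FPKM + 1, was -2.34, -2.85 and -2.42 in the knockout-labelled libraries, against -6.00, -6.28 and -5.49 in the controls. The groups were far apart, with a difference of 3.39 and an exact two-sided permutation p = 0.1, the smallest that 3 against 3 libraries allow (adjusted p = 0.5 over 5 ratios). For Flg2, Hrnr and Tchh the ratio to Flg differed by -0.22, -0.15 and -0.15 (exact permutation p = 0.6, 0.5 and 0.6), and the groups overlapped. For Tchhl1 it differed by 0.77 (exact permutation p = 0.2), and by 0.87 and 0.57 with 0.1 and 5 FPKM added in place of 1.

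The family as a whole summed to 1389, 1478 and 1194 FPKM in the knockout-labelled libraries and to 1774, 2098 and 996 FPKM in the controls, and the groups overlapped (exact two-sided permutation p = 0.5). Without Flg the sums were 498, 484 and 456 FPKM in the knockout-labelled libraries and 539, 535 and 369 FPKM in the controls. Rptn made up 12.6%, 9.25% and 11.5% of the family's FPKM in the knockout-labelled libraries, against 1.03%, 0.910% and 1.30% in the controls. Flg made up 64.1%, 67.2% and 61.8% in the knockout-labelled libraries and 69.6%, 74.5% and 62.9% in the controls.

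Tchh was set beside the keratins of the inner root sheath, the follicle layer in which it is best known. All 10 genes of an inner root sheath list fell (7 keratins with Padi3, Tgm3 and Gata3, a transcription factor of that layer), with a median of -0.81, against 15.6% lower and a median of -0.06 over all tested genes. All 10 also fell without control 264 (background 16.8%), while 9 did with length and GC content adjusted (background 12.1%), where Gata3 was not called. Gata3 was also not called after trimmed mean scaling or quantile normalization (limma, adjusted p = 0.0620 and 0.0692). Padi3 and Tgm3 are counted again in the lists of filaggrin processing and of cross-linking below. Krt71 fell by 0.97 ± 0.12 (limma, adjusted p = 0.00406) and Krt72 by 1.24 ± 0.12 (limma, adjusted p = 0.00250). In bulk tissue, fewer cells of a type and less RNA per cell cannot be told apart. Relative to the mean log2 value of 6 of these keratins Tchh was at -0.63, -0.58 and -0.62 in the knockout-labelled libraries, against -0.87, -0.74 and -1.58 in the controls. It was thus higher relative to the keratins in every knockout-labelled library (difference 0.45, exact two-sided permutation p = 0.1, the smallest possible), and by 0.20 without control 264. Hair shaft markers (keratins such as Krt31 and Krt85) moved the same way: the 5 with a row summed to 133 to 155 FPKM in the knockout-labelled libraries and 247 to 332 FPKM in the controls, and all 5 fell.

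**Figure D4:**
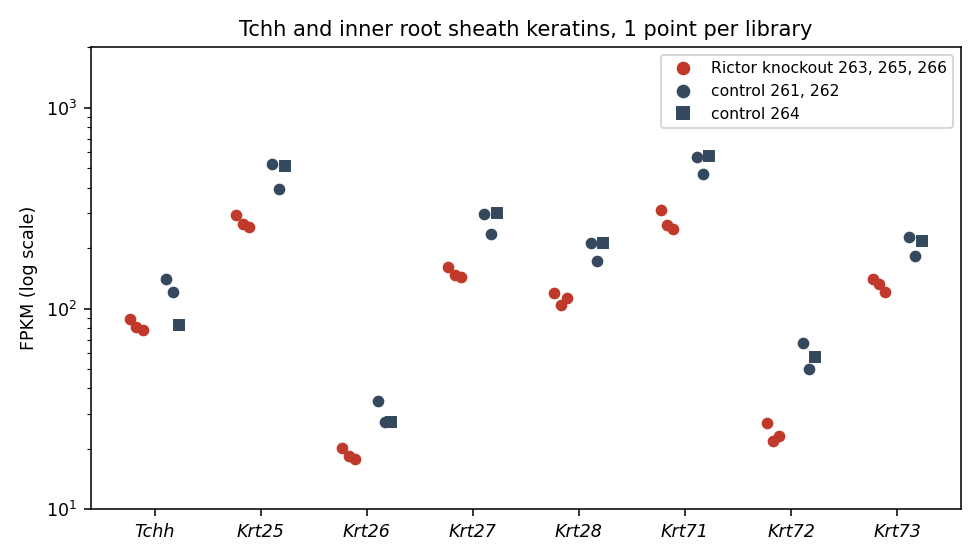
FPKM on a log axis of Tchh and 7 inner root sheath keratins, 1 point per library, with knockout-labelled libraries in red left of controls in blue. For each keratin all controls lie above all knockout-labelled libraries, while for Tchh control 264 (square, 82.8 FPKM) lies among the knockout-labelled values.

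Genes of filaggrin processing and of cross-linking and envelope partners, not all of them enzymes, were counted in 2 lists. Of 15 genes of filaggrin processing 5 were lower and 1 higher, with a median of -0.11, against 15.6% lower, 7.91% higher and a median of -0.06 over all tested genes. Hal, which turns filaggrin's histidine into urocanic acid, differed by -1.10 ± 0.08, and the deiminases Padi3 and Padi1 by -0.79 ± 0.10 and -0.78 ± 0.07 (limma, adjusted p = 0.00112, 0.00372 and 0.00221). The other calls, named after their values were seen, were Casp14, a protease of filaggrin breakdown (-0.77), and Prss8, the protease prostasin (-0.62), both lower, and Spink5, a protease inhibitor (0.40), higher, the last not called after quantile normalization. Asprv1, the abundant protease that cleaves the profilaggrin linker, stood at 2597 ± 170 FPKM in the knockout-labelled libraries and 2798 ± 182 FPKM in the controls (SD, n = 3 each) and was not called (limma, adjusted p = 0.452).

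Of 11 tested genes of cross-linking and envelope partners 2 were higher and 2 lower, and the median was 0.00, beside the same background of 7.91% higher and 15.6% lower. Without control 264 the counts were 2 higher and 3 lower (background 11.2% and 16.8%). The transglutaminases split. Tgm1, the membrane-bound enzyme of the epidermis, rose to 139 ± 10.3 FPKM in the knockout-labelled libraries, against 87.5 ± 3.09 FPKM in the controls. Tgm3, which cross-links trichohyalin and envelope proteins, fell to 10.4 ± 1.05 FPKM in the knockout-labelled libraries, against 25.8 ± 3.46 FPKM in the controls (SD, n = 3 each; limma, adjusted p = 0.00335 and 0.00225). Tgm5, named after its value was seen, fell by 0.32 ± 0.07, and cornifelin (Cnfn), an envelope protein, rose by 0.70 ± 0.07 (limma, adjusted p = 0.0192 and 0.00286).

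The members sit at one end of the epidermal differentiation complex, the cluster of cornification genes that runs here from S100a1 to S100a11. Of its 68 other protein-coding genes 58 were tested, of which 23 were higher and 6 lower, with a median of 0.18 (background 7.91% higher, 15.6% lower, median -0.06). After the length and GC adjustment 27 were higher and 3 lower (background 12.5% and 12.1%). Of the 23 higher genes, Sprr2e, Sprr2f, Sprr2i, Sprr2j-ps, Lce3a, Lce3b and Lce3f had control means of only 0.0182 to 0.917 FPKM. They were tested only through the knockout-labelled mean, and of the 6 lower genes Gm4858 was tested only through the control mean. The members are adjacent, with no other protein-coding gene between Flg2 and Tchhl1. Rptn, 120.2 kb from the start of Flg, rose between neighbours that were not called, Hrnr and Tchh. The nearest called genes outside the 6 were Crnn, which starts 52.5 kb before the start of Flg2, and S100a11, which starts 51.7 kb after that of Tchhl1. Crnn (ENSMUSG00000078657) had 13.8, 14.4 and 12.3 FPKM in the knockout-labelled libraries, against 27.7, 22.5 and 28.0 FPKM in the controls, and its groups were well apart. It fell by 0.89 ± 0.10 (limma, adjusted p = 0.00342), by 0.84 ± 0.11 without control 264. S100a11, a calcium-binding S100 protein, rose by 0.39 ± 0.11 (limma, adjusted p = 0.0465).

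**Figure D5:**
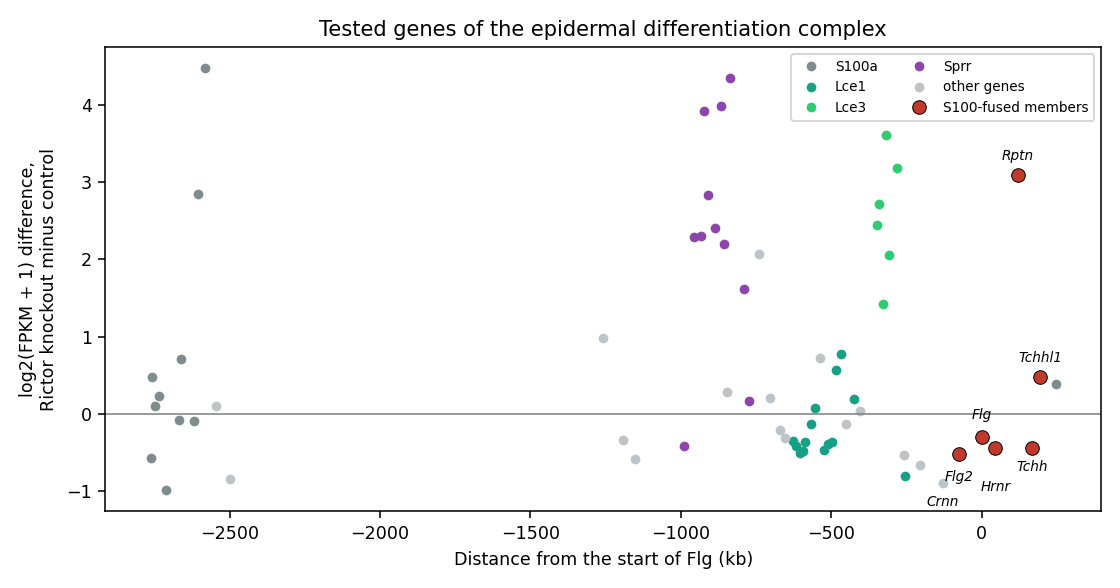
Difference in log2(FPKM + 1), knockout-labelled minus control, of each tested protein-coding gene of the complex against the distance of its start from the start of Flg in kb. Rptn, at 3.09, lies within the range of the Lce3 genes to its left (1.42 to 3.62), and the members beside it lie between -0.52 and 0.48. The added 1 FPKM sets this range in part. Lce3a and Lce3b, with control means of 0.0182 and 0.0533 FPKM, lie below Rptn with larger folds (255 and 117, against 8.92).

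Patterns over the 6 libraries were compared by the root mean square difference of log2(FPKM + 1), each gene centred on its own mean, over 11732 protein-coding genes. For Rptn the closest were Lce3f (0.16), an envelope gene of the Lce3 group, Arc (0.20), an immediate early gene of neurons, and Sprr2f (0.26), an envelope gene of the small proline-rich family. Lce3f and Sprr2f had control means of 0.917 and 0.218 FPKM, so they were tested only through the knockout-labelled mean. On this scale the added 1 FPKM shrinks their folds of mean FPKM, which were 17.9 and 36.4, against 8.92 for Rptn. Lce3f had 18.7, 12.8 and 17.7 FPKM in the knockout-labelled libraries, against 1.24, 0.928 and 0.581 FPKM in the controls. For Flg the closest was loricrin (Lor, 0.17), the main protein of the envelope, at 2972, 3964 and 2891 FPKM in the knockout-labelled libraries and 4524, 5201 and 2914 FPKM in the controls. Lor and Flg thus shared the low value in control 264, and without it Lor, like Flg, was called lower (-0.58 ± 0.16, limma adjusted p = 0.0428). Npc1 (0.17), a cholesterol transporter, and Serpina3g (0.19), a protease inhibitor, followed.

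For Flg2 the closest were Ubxn11 (0.05), Abca3 (0.06) and Zfr2 (0.07), for Hrnr Pnpla7 (0.06), Ints6l (0.07) and Mrrf (0.08), for Tchh Nckap5 (0.09), Rsg1 (0.10) and Chpf2 (0.10), and for Tchhl1 Pmepa1 (0.03), Nucb2 (0.05) and Cpne1 (0.05). Ubxn11 stood at 0.441 to 0.625 FPKM in the knockout-labelled libraries and 0.778 to 1.63 FPKM in the controls. Rsg1 stood at 0.576 to 0.821 FPKM in the knockout-labelled libraries and 0.635 to 1.57 FPKM in the controls. Both were tested only through the control mean, and at such levels the added 1 FPKM shrinks differences. Among the members themselves the closest pair was Tchh and Flg2 (0.12), for which Flg2 ranked 6 among all genes by likeness to Tchh. Rptn was 1.32 from Tchhl1 and 1.72 to 1.81 from the other members.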

How the data were processed

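Epidermal RNA was extracted with a QIAGEN RNeasy kit and libraries followed a standard Illumina preparation, per the labels' protocols. CASAVA, Cufflinks and GRCm38 are named in the submitters' processing notes without versions. No aligner, annotation or strandedness is stated there. What the authors deposited is 1 FPKM table, whose header names a column per library. GENCODE M21 matched 49109 of 49452 identifiers, and the highest-mean row was kept per symbol, which left out 66 rows. The members, lists and naming rule were chosen with results of these data known. The named genes were the 6 members, Crnn, up to 3 called genes and the most abundant gene of each list, the nearest called neighbours and the 3 genes most alike. Values were analysed as log2(FPKM + 1), so folds of low genes are understated. The 13500 genes whose knockout-labelled or control mean reached 1 FPKM were fitted by limma 3.58.1 in R 4.3.3 with an intensity trend and no covariates (prior degrees of freedom 2.80), two-sided, Benjamini-Hochberg adjusted over all of them at 0.05. The fit was tested on simulated data, drawn as independent normal values without a library effect or length trend. That test does not cover a library that stands apart, such as control 264. Single ratios and sums used exact permutation tests over libraries. The depth in reads is not known, so no counting error is given. Alternatives were pseudocounts of 0.1 and 5, no filter or a floor of 5 FPKM, scaling by medians, trimmed means or quantiles, a length and GC adjustment, no trend, robust moderation, array weights and each library left out. List counts without control 264 or with the length and GC adjustment were added after seeing the data. Figures used Python 3.11.15 and matplotlib 3.10.9.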

Additional observations from a re-analysis of the deposited data

How the results depend on the processing

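The log2 difference of every member kept its sign under all 17 alternatives, and Rptn also kept its call. With array weights control 261 had a weight of 5.68, control 262 of 0.628 and control 264 of 0.194, so that most of the control weight rested on library 261. In that setting 6272 of the 13500 tested genes were called, 2335 higher and 3937 lower. Every member was called there: Flg (-0.56), Flg2 (-0.75), Hrnr (-0.42) and Tchh (-0.73) lower, and Rptn (2.96) and Tchhl1 (0.39) higher. Flg2 was also called at a minimum of 5 FPKM (-0.52), with robust moderation (-0.52) and with the length and GC adjustment (-0.61). Tchhl1 was not called without a filter (0.48, limma adjusted p = 0.0943) or at a minimum of 5 FPKM (0.48, adjusted p = 0.0544). With each library left out in turn, the count of called genes was 1462 to 3784, below the 3169 of all libraries except without control 264; the ranges were -0.68 to -0.020 for Flg, -0.69 to -0.40 for Flg2, -0.60 to -0.25 for Hrnr, 2.93 to 3.19 for Rptn, -0.66 to -0.28 for Tchh and 0.40 to 0.59 for Tchhl1. The ratio to Flg ranged from -0.45 to -0.01 for Flg2, 3.21 to 3.60 for Rptn and 0.50 to 1.09 for Tchhl1, and that of Tchh to root sheath keratins from 0.20 to 0.61. Without control 264 the ratio to Flg changed sign for Hrnr (-0.30 to 0.073 over the libraries) and Tchh (-0.37 to 0.020). The summed family ranged from -0.52, without control 264, to 0.021, without control 262, where it changed sign. The causes were not tested. No paired analysis was made, because the labels do not say which libraries, if any, form pairs.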

Other observations

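Of 20 transcription factors known from epidermal differentiation, 1 was higher and 2 lower, with a median log2 difference of -0.05, against 7.91% higher, 15.6% lower and a median of -0.06 over all tested genes. Nfe2l2, the oxidative stress factor NRF2, rose to 29.0 ± 3.27 FPKM in the knockout-labelled libraries, against 20.3 ± 2.20 FPKM in the controls (SD, n = 3 each; limma, adjusted p = 0.0208). Cebpa fell to 144 ± 7.04 FPKM in the knockout-labelled libraries, against 185 ± 9.03 FPKM in the controls, and Ahr, the aryl hydrocarbon receptor, fell to 12.9 ± 1.04 FPKM in the knockout-labelled libraries, against 16.6 ± 0.878 FPKM in the controls (SD, n = 3 each; limma, adjusted p = 0.0159 and 0.0252). Ahr was not called after trimmed mean scaling. Klf4, the most abundant of the list, averaged 325 ± 24.8 FPKM in the knockout-labelled libraries and 283 ± 34.3 FPKM in the controls and was not called (adjusted p = 0.226). Without control 264 the counts were 1 higher and 6 lower (background 11.2% and 16.8%).

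Markers of other cells were mostly low or lower. The counts below stand beside 15.6% of all tested genes called lower and 7.91% called higher. Summed FPKM of 4 T cell markers was 1.21 to 3.51 in the knockout-labelled libraries and 6.70 to 10.4 in the controls, with 2 called lower. That of 5 Langerhans and myeloid markers was 22.9 to 25.1 in the knockout-labelled libraries and 33.3 to 42.8 in the controls, with 3 called lower. That of 5 melanocyte markers was 264 to 296 in the knockout-labelled libraries and 351 to 437 in the controls, with 4 called lower. Fibroblast markers summed to 124 to 159 in the knockout-labelled libraries and 114 to 142 in the controls, with 2 of 6 called higher. The 4 skeletal muscle markers with a row (7.78 to 22.5 in the knockout-labelled libraries, 6.16 to 13.6 in the controls), the 3 endothelial markers (0.447 to 0.634 in the knockout-labelled libraries, 0.327 to 0.627 in the controls) and the 3 of filiform epithelium (1.35 to 1.92 in the knockout-labelled libraries, 0.659 to 1.68 in the controls) had 0 calls. Their part in the members' values was not tested.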
